A study of Mus musculus with 4 samples.

Results

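The Zic genes measured here are Zic1, Zic2, Zic4 and Zic5, 4 rows of a single-cell (sc) RNA-Seq table of 16600 genes, chosen by family name and not by their values. The cells came from the cortex of C57BL/6J mouse fetuses at E18.5, 2 of them Setd5+/+ and 2 Setd5+/-, the latter heterozygous for the Setd5 GFP allele, which the study uses as a constitutive knockout and model of SETD5 haploinsufficiency. They had been sorted as CD24+ CD45- cells, that is, positive for a pan-neuronal surface protein and negative for a hematopoietic one, and each fetus gave 1 droplet library of 3′ transcript ends. The libraries are named by their cell prefixes, WT3 and WT6 (Setd5+/+) and Het5 and Het9 (Setd5+/-), since a prefix shows its genotype and cannot be matched to 1 numbered sample. The study asked whether loss of 1 Setd5 copy changes gene expression in developing neurons. It named Zic1 and Zic4 as lower in its cluster 3 of these same libraries, so a genotype difference in these genes is not independent evidence here.

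The libraries held 1445 to 1954 cells with medians of 5398 to 5997 unique molecular identifiers (UMIs) per cell, each UMI standing for 1 captured transcript. Of 6562 cells, 224 carried 56 barcodes found in all 4 libraries and were left out, which left 6338. Setd5 averaged 1.20 (WT3) and 1.09 (WT6) against 0.530 (Het5) and 0.584 (Het9) UMIs per 10000. Xist, transcribed from the inactive X chromosome, averaged 21.3 and 22.0 UMIs per 10000 in the Setd5+/+ libraries and 0.0379 and 0.138 in the Setd5+/- libraries. The Y-linked Ddx3y had 0.506 and 0.484 in the Setd5+/- libraries and at most 0.000620 in the others. Sex and genotype therefore cannot be told apart in any genotype difference below.

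Zic proteins are zinc finger transcription factors related to the Gli factors of hedgehog signaling, and they take part in the patterning of the neural tube. In the embryonic forebrain they are known from the dorsal midline, including the cortical hem and its Cajal-Retzius cells, and from the septum and adjoining subpallium. The genes lie in the genome as neighboring pairs on opposite strands.

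In GENCODE M21 on GRCm38, the build also called mm10, Zic1 lies on chromosome 9 from 91358058 to 91365810 on the minus strand, and Zic4 on chromosome 9 from 91362413 to 91389348 on the plus strand. In this annotation the genes share 3398 bases, since Zic4 starts inside Zic1 on the opposite strand. The 3′ ends that the kit reads are outside the shared stretch, 4355 bases from it for Zic1 and 23538 for Zic4. Whether the counting used the strand is not given in the sources used here, so reads inside the shared stretch cannot be assigned with certainty. Zic5 (chromosome 14, 122456795 to 122465677, minus strand) and Zic2 (chromosome 14, 122475435 to 122479852, plus strand) face away from each other with 9757 bases between them.

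The 250 bases before the RefSeq starts of Zic1 and Zic4 (GRCm38.p6) are shown because these neighbors were found in the same cells more often than any other Zic pair in each library. The Zic1 window is chr9:91365769-91366018 on the minus strand and the Zic4 window chr9:91368722-91368971 on the plus strand, with 2703 bases between them. The Zic4 window lies inside the GENCODE gene of Zic4 and beyond the end of Zic1. RefSeq and GENCODE thus place the start of Zic4 differently, and the window is upstream of the RefSeq start only. Both windows are written 5′ to 3′ on the strand of the gene, and capitals mark matches, on either strand, to the motifs CCAAT and GGGCGG and the motif CACGTG.
Zic1: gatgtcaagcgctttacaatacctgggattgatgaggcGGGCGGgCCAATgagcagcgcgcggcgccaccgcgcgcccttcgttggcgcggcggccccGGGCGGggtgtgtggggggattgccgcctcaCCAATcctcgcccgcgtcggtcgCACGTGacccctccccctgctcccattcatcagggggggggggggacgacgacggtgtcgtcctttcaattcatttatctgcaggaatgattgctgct
Zic4: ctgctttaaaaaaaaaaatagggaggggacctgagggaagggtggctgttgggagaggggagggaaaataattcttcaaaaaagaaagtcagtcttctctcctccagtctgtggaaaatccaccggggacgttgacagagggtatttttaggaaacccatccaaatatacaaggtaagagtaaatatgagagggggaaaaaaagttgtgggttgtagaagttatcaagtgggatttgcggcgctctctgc
The Zic1 window held 2 matches to CCAAT, 2 to GGGCGG and 1 to CACGTG, none of them overlapping. CCAAT occurs in 33.8%, GGGCGG in 32.7% and CACGTG in 6.02% of the 32851 RefSeq windows of this length. The Zic4 window held no match to these letters, and neither the Zic4 nor the Zic1 window held CAGCAGG (8.44% of windows), TATAAA (12.4%) or GACCACCCA (0.225%). Zic5 (chr14:122465659-122465908, minus strand) held no match to any of the 6. The G and C content was 66.0% for Zic1, 44.4% for Zic4 and 62.4% for Zic5, against a median of 52.4% over all windows.

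A Zic1 UMI was found in 961 of the 6338 cells (15.2%), a Zic4 UMI in 444 (7.01%), a Zic5 UMI in 314 (4.95%) and a Zic2 UMI in 228 (3.60%). The cells were assigned to types by marker genes (gates) that do not include the Zic genes. The Dlx neuroblast gate, for example, held 606 cells with at least 2 of Dlx1, Dlx2, Dlx5, Dlx6os1 and Gad2 and with neither cycle markers nor Lhx6, Htr3a or Nr2f2. Of these cells 79.2% had a UMI of Dcx, the microtubule protein of migrating neurons, and 96.0% one of Cd24a, the sorted antigen. The gate named for Cajal-Retzius cells or hem held 79 cells. Its rule was at least 2 of Reln, Trp73, Lhx1, Lhx5, Rspo3, Wnt3a, Wnt2b, Lmx1a and Rspo2 and fewer than 2 of the Dlx list. The shares with these genes are raised by that rule and show only which of them met it. They were 79.7% for Reln, 91.1% for Rspo3, 45.6% for Lhx5, 41.8% for Trp73, 39.2% for Lhx1, 29.1% for Rspo2 and 15.2% for Lmx1a. Wnt2b was found in 0 of them, which allows a share of up to 3.80%, and Wnt3a in 7.59%. Both are defining markers of the hem.

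By the mean over libraries, each of the 4 genes was highest in the Cajal-Retzius or hem gate and next highest in the Dlx neuroblasts, among the 11 gates with at least 10 cells in every library. Gates with fewer cells are given below. The first gate was above the neuroblasts in 4 of 4 libraries, except for Zic4 with 3. The neuroblasts were above the gate that followed in 3 of 4 libraries for each gene. Zic1 averaged 4.84 ± 1.35 UMIs per 10000 in the Cajal-Retzius or hem gate (SD, n = 4 libraries) and 2.05 ± 1.41 in the Dlx neuroblasts. In WT3, WT6, Het5 and Het9 its level in the former gate was 5.01, 5.65, 5.80 and 2.88. The ranges of the gates overlapped, although the former was higher in 4 of 4 libraries. Zic1 was next highest in the Ebf1 gate, set by UMIs of Ebf1 or of Ebf1 with Isl1, with 1.54 ± 0.345. These genes mark young striatal neurons, but 51.5% of the 237 cells had at least 2 of the 5 excitatory markers and 38.8% at least 2 of the 5 Dlx markers, so the gate is called by its gene. In this order the Ebf1 gate did not overlap with the next gate, and neither did the deep-layer excitatory neurons (0.261 ± 0.0392) with the other excitatory neurons (0.0886 ± 0.0520). The gates between, from the Lhx6 interneurons (0.690 ± 0.429) down to the cycling Dlx cells (0.346 ± 0.179), overlapped with their neighbors.

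Zic4 had 2.15 ± 0.698 UMIs per 10000 in the Cajal-Retzius or hem gate, 1.07 ± 0.780 in the Dlx neuroblasts and 0.552 ± 0.467 in the Ebf1 gate, each overlapping in its range with the next. It was found in 0 of 465 cells of the other excitatory gate, which allows a share of up to 0.645%. Zic2 had 0.837 ± 0.279 in the Cajal-Retzius or hem gate, above and not overlapping with 0.201 ± 0.151 in the Dlx neuroblasts. Zic5 had 1.05 ± 0.248 in the former gate and 0.341 ± 0.237 in the Dlx neuroblasts, again without overlap. The orders of the genes parted below these gates. Zic1 and Zic4 came next in the Ebf1 gate, whereas Zic2 and Zic5 came next in the progenitor gates, with 0.121 ± 0.0304 (Zic2) and 0.225 ± 0.0609 (Zic5) in radial glia and 0.0968 ± 0.0213 and 0.234 ± 0.0940 in cycling pallial cells. In the Ebf1 gate they had 0.0548 ± 0.0189 and 0.0564 ± 0.0437.

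**Figure D1:**
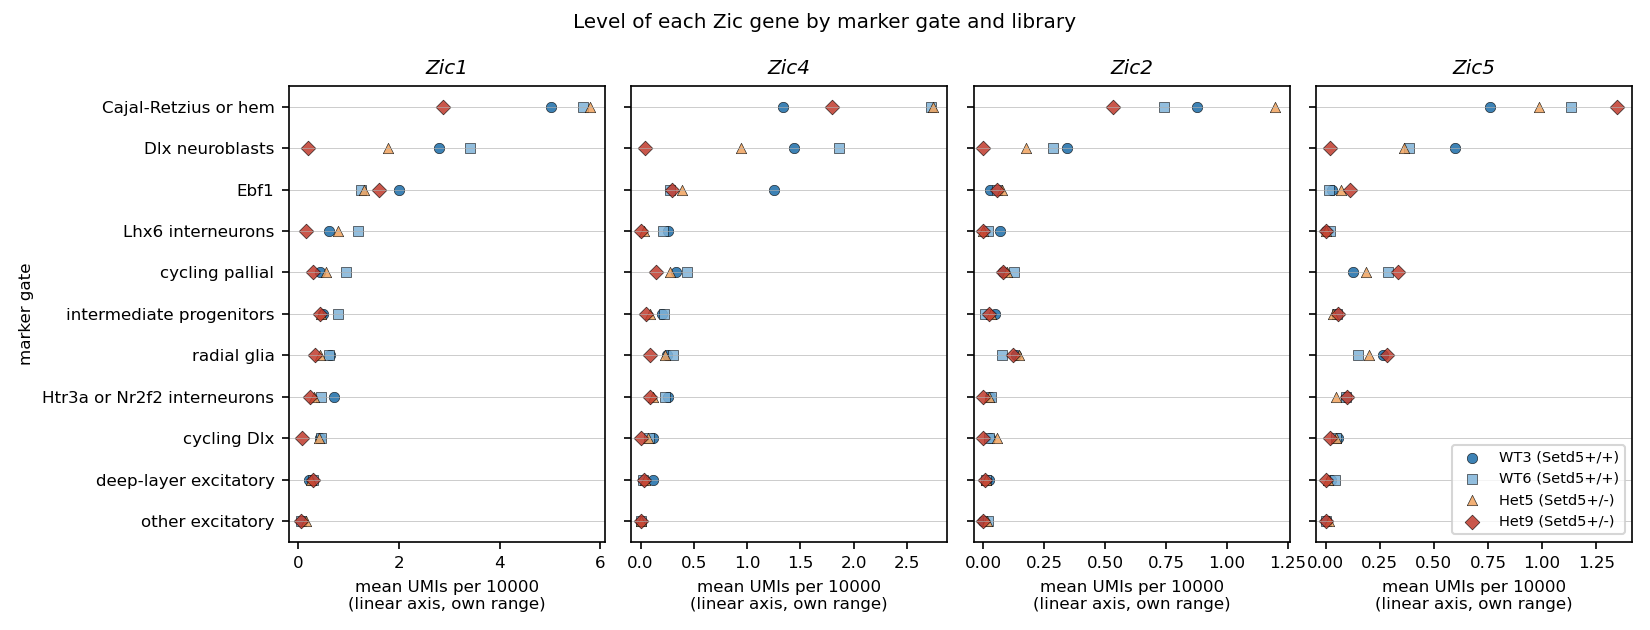
Mean level of Zic1, Zic4, Zic2 and Zic5 (horizontal linear axis, UMIs per 10000, with its own range for each gene) in 11 marker gates (vertical axis), with 1 point for each library. By the mean over libraries, every gene is highest of these 11 gates in the Cajal-Retzius or hem gate. In the Dlx neuroblasts the Het9 point lies near 0 for all 4 genes.

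With the libraries pooled, the Dlx neuroblasts were 9.56% of the cells and held 28.8% of all Zic1 UMIs, 36.6% of those of Zic4, 27.3% of those of Zic2 and 25.8% of those of Zic5. For Zic1 the share was 33.2% in WT3, 36.3% in WT6, 18.9% in Het5 and 5.24% in Het9. In Het9 they were 8.28% of the cells and held 5.80% of the Zic4 UMIs, 0% of those of Zic2 and 1.32% of those of Zic5, so that library had no enrichment. The Cajal-Retzius or hem gate was 1.25% of the cells and held 9.98%, 10.6%, 15.2% and 13.2%. Zic expression was not limited to these gates. Intermediate progenitors, which are 18.9% of the cells, held 14.8% of the Zic1 UMIs and 8.40% of those of Zic4.

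Glial cells with Olig1 or Olig2 were few (67 cells) and carried Zic4 at a high level. Zic4 averaged 4.64 UMIs per 10000 in the 15 cells of WT3, 2.72 in the 28 cells of WT6, 2.26 in the 18 cells of Het5 and 0 in the 6 cells of Het9. The WT3 value was above the highest library of the Cajal-Retzius or hem gate (2.74), so the order above does not cover this gate. Zic1 had 2.61, 2.44, 0.902 and 0. The 6 cells of Het9 allow a share of up to 50% for either gene, so the 0 has little weight. Pdgfra and Sox10, which mark committed oligodendrocyte precursors, were each found in 4.48% of these 67 cells, while Fabp7, a radial glial lipid carrier, was found in 98.5%. Choroid plexus cells were 9, and 8 of them had Zic1, 7 had Zic4 and 7 had Zic5. They were 0.142% of the cells and held 1.43% of the Zic4 UMIs and 1.89% of those of Zic5.

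The Zic genes were found together in single cells. Zic1 and Zic4 shared 379 cells, against 74.2 expected if they were detected independently within each library. Of the Zic4-positive cells 85.4% also had Zic1, compared with 9.87% of the Zic4-negative cells, and of the Zic1-positive cells 39.4% had Zic4. The log2 odds ratio of detection was 5.76 in WT3, 5.53 in WT6, 5.20 in Het5 and 6.54 in Het9 (5.76 ± 0.57, SD, n = 4). In each library this was the highest of the 6 pairs of the 4 genes. It was 4.36 ± 0.37 for the neighbors Zic2 and Zic5, 4.32 ± 0.22 for Zic2 and Zic4, 4.18 ± 0.57 for Zic4 and Zic5, 3.52 ± 0.52 for Zic1 and Zic2, and 3.49 ± 0.90 for Zic1 and Zic5. Cells of a library share its depth and its cell types, both of which raise such a ratio, so these values describe the cells and carry no test.

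With every cell thinned to 3000 UMIs, which leaves out 79 to 145 cells of a library, the Zic1 and Zic4 ratio was 5.11 ± 0.30 and that of Zic2 and Zic5 was 3.03 ± 0.43, by its mean the lowest of the 6 pairs and no longer the second highest. Zic1 and Zic4 were then the highest pair in 3 of 4 libraries, and Zic2 and Zic4 in the other. Part of the sharing lies between gates. Within gate and library, 137 cells with both Zic1 and Zic4 were expected and 379 were found, a ratio of 2.76, and the other pairs had ratios of 2.01 (Zic1 and Zic5) to 2.66 (Zic2 and Zic5). After thinning it was 2.86, and the others lay between 1.94 (Zic2 and Zic5, 17 cells) and 2.39 (Zic2 and Zic4), so the order of the other pairs depends on depth. Outside the Dlx gates the log2 odds ratio of Zic1 and Zic4 was 5.33 ± 0.56 and it was 4.65 ± 0.028 after thinning. In the Cajal-Retzius or hem gate, where most cells have Zic1, it was 1.55 ± 1.54 and was above 0 in 3 of 4 libraries, and after thinning it was 2.92 ± 0.62 and above 0 in 4 of 4.

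**Figure D2:**
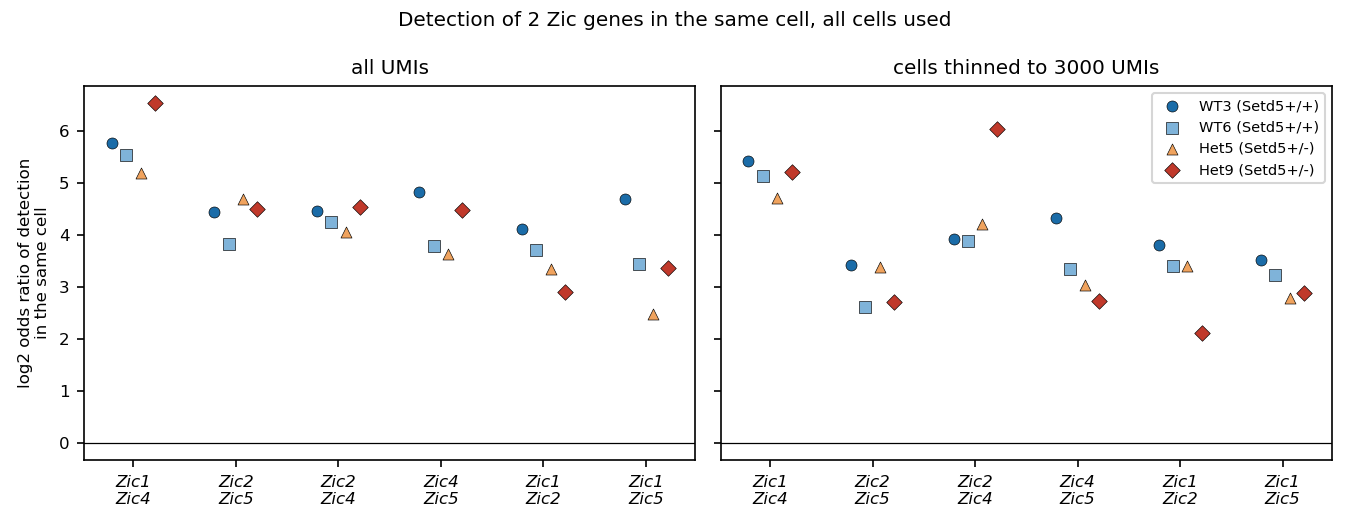
Log2 odds ratio (vertical axis) of detecting 2 Zic genes in the same cell, for the 6 pairs (horizontal axis), with all UMIs on the left and with cells thinned to 3000 UMIs on the right. Each point is 1 library, and 0 stands for independent detection. Zic1 with Zic4 is the highest pair in 4 of 4 libraries with all UMIs and in 3 of 4 after thinning.

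In the Dlx neuroblasts, 108 cells had both Zic1 and Zic4, 35 had Zic1 only and 10 had Zic4 only. The expected number with both was 34.1, and the log2 odds ratio was between 4.27 and 9.35 over the 4 libraries. At least 2 of the 4 genes were found in 29.0% of the neuroblasts of WT3, 26.3% of WT6, 13.3% of Het5 and 1.74% of Het9, and all 4 in 9, 16, 3 and 0 cells. Cells with a Zic gene were a minority of the gate in every library, from 3.48% in Het9 to 35.1% in WT3.

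In the Dlx neuroblasts the 4 genes were lower in the Setd5+/- libraries, and the size of the difference rested mainly on Het9. Zic1 averaged 2.80 UMIs per 10000 in WT3, 3.42 in WT6, 1.78 in Het5 and 0.202 in Het9. The genotypes did not overlap, and Het5 lay closer to WT3 than to Het9. The log2 difference of Setd5+/- from Setd5+/+ was -2.09 (SE 0.43, Benjamini-Hochberg adjusted p = 0.0241 from limma). Limma called 23 of 7702 genes in this gate, 0.299%, and all 4 Zic genes passed its filter on low values, of which Zic1 and Zic4 were called.

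Zic4 averaged 1.44 UMIs per 10000 in WT3, 1.86 in WT6, 0.943 in Het5 and 0.0433 in Het9, a log2 difference of -2.17 (SE 0.48, adjusted p = 0.0486 from limma). Zic2 had 0.342, 0.286, 0.175 and 0, with a log2 difference of -1.32 (SE 0.38, adjusted p = 0.289 from limma). Zic5 had 0.596, 0.383, 0.363 and 0.0216, with a log2 difference of -1.29 (SE 0.41, adjusted p = 0.440 from limma). In each of the 4 genes, then, Het5 and Het9 were under WT3 and WT6. Differences on this scale, log2(mean + 0.1), understate changes of genes near the pseudocount of 0.1.

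Without Het9 the log2 difference was -0.77 for Zic1 and -0.73 for Zic4, and without Het5 it was -3.40 and -3.60. Without WT3 or WT6 it was -2.22 and -1.95 for Zic1 and -2.34 and -1.99 for Zic4. Each of these fits leaves 1 library in a genotype, so its p does not measure the spread between fetuses of that genotype. Adjusted p-values of such fits are therefore not given. The direction was the same under all 12 alternatives, of which 4 kept the call of Zic1 and 5 that of Zic4. Both counts include the fit without Het5, and neither call was kept without Het9, WT3 or WT6. Zic2 and Zic5 were -2.05 and -2.25 without Het5 and -0.58 and -0.32 without Het9. Zic2 had no UMI in the Het9 neuroblasts, so its value without Het5 rests on the pseudocount. With 2 fetuses per genotype, an exact two-sided permutation test cannot give a p under 0.33, and the sample labels do not say whether the fetuses came from separate litters.

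The share of neuroblasts with the genes was lower in both Setd5+/- libraries. No test of the shares is given, and the exact permutation test planned for them cannot go below p = 0.333 with 2 against 2 libraries. The Zic1 interval of Het5 overlapped with those of WT3 and WT6. Zic1 was found in 33.6% of the neuroblasts of WT3 (exact 95% binomial interval 25.6 to 42.4, 131 cells), 29.6% of WT6 (23.9 to 35.8, 240 cells), 20% of Het5 (13.3 to 28.3, 120 cells) and 3.48% of Het9 (0.956 to 8.67, 115 cells). Zic4 was found in 26.7%, 25.8%, 16.7% and 0.870%. The intervals cover counting error only. In the other excitatory neurons, taken as cells that should lack the genes, Zic1 was found in 4.63%, 3.49%, 6.45% and 2.72% of cells, at a median depth of 5176 UMIs against 4270 in the neuroblasts. The Het9 neuroblasts were at this background, and those of the other 3 libraries were above it.

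After thinning to 3000 UMIs the Zic1 shares in the neuroblasts were 35.6%, 31.1%, 14.9% and 2.08%. The mean share of the Setd5+/- libraries was 19.8 percentage points lower for Zic1 (11.7% against 31.6%) and 17.5 points lower for Zic4 (8.77% against 26.3%). The difference of the mean shares was -9.06 points for Zic2 and -9.25 points for Zic5. After thinning it was -24.9 (Zic1), -18.7 (Zic4), -5.08 (Zic2) and -4.32 (Zic5) points. As deposited and without Het9 it was -11.6, -9.61, -6.14 and -5.10 points in the same order. Among the neuroblasts that had Zic1, its mean level was 8.35 UMIs per 10000 in WT3, 11.5 in WT6, 8.88 in Het5 and 5.81 in the 4 positive cells of Het9, so Het5 lay within the Setd5+/+ range. Zic1-positive neuroblasts were 3.15%, 3.74%, 1.45% and 0.288% of the cells used of each library, whereas Zic1-negative ones were 6.23%, 8.90%, 5.80% and 7.99% and overlapped between genotypes. Fewer Zic-positive cells and less Zic RNA per cell below the limit of detection cannot be told apart in these counts.

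**Figure D3:**
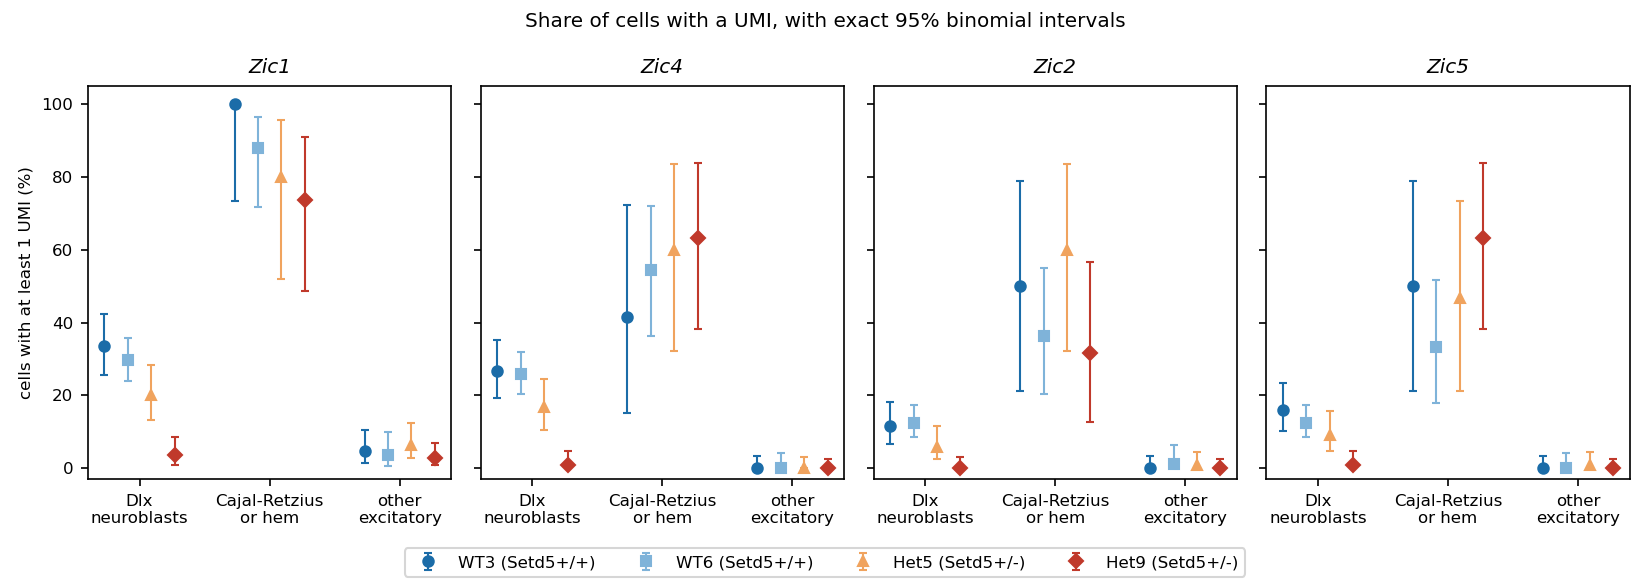
Share of cells with at least 1 UMI of each Zic gene (vertical axis, %) in the Dlx neuroblasts, the Cajal-Retzius or hem gate and the other excitatory neurons, with 1 point for each library and exact 95% binomial intervals as bars. In the Dlx neuroblasts the Het9 share is at the level of the other excitatory neurons, while in the Cajal-Retzius or hem gate the libraries overlap.

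**Figure D4:**
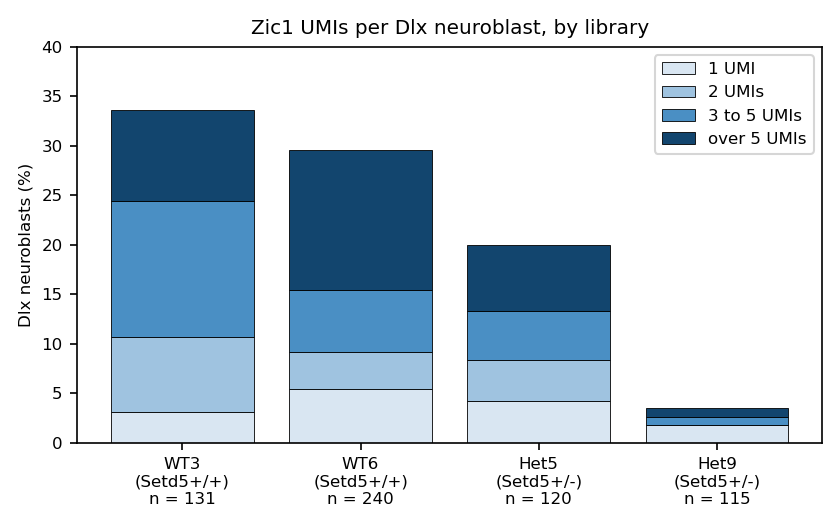
Share of Dlx neuroblasts (vertical axis, %) with 1, 2, 3 to 5 or over 5 Zic1 UMIs, stacked, in each library, with the number of neuroblasts under each bar. Cells with at least 3 UMIs were 22.9% in WT3, 20.4% in WT6, 11.7% in Het5 and 1.74% in Het9.

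Some marker lists of other cell types moved with genotype in the same gate. The 8 glial markers summed to 3.29 (WT3), 2.66 (WT6), 13.9 (Het5) and 9.39 (Het9) UMIs per 10000 in the neuroblasts, and 8 of the 8 were higher in both Setd5+/- libraries. The largest part was Fabp7, with 1.30 and 0.900 against 8.11 and 5.78. Cells with at least 4 glial markers were 2.29%, 2.92%, 10.8% and 5.22%. With cells that met a second gate left out, the log2 difference was -1.98 for Zic1 and -2.07 for Zic4, and neither was called (adjusted p = 0.303 and 0.381 from limma). The Dlx list itself summed to 24.4, 25.7, 24.0 and 26.0 UMIs per 10000. The 5 excitatory markers summed to 2.47 (WT3), 1.34 (WT6), 4.88 (Het5) and 2.69 (Het9), also higher without overlap. The part of these markers in the Zic difference was not tested further.

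With all 4 libraries, limma called none of the Zic genes that passed its filter in any other gate, where the share of all genes called was 0.107% in cycling Dlx cells, 0.117% in Htr3a or Nr2f2 interneurons, 0.0396% in Lhx6 interneurons, 0.0504% in the Ebf1 gate, 0.0741% in cycling pallial cells, 0.111% in radial glia, 0.131% in intermediate progenitors and 0.116% in deep-layer excitatory neurons. In the other excitatory neurons (0.0779% called) no Zic gene passed the filter. In cycling Dlx cells Zic1 had 0.431, 0.458, 0.415 and 0.0788 UMIs per 10000 in WT3, WT6, Het5 and Het9. Het9 was again far below the others, and Het5 was just below them (log2 difference -0.84, adjusted p = 0.986 from limma). Without Het5 the difference was -1.61 and without Het9 it was -0.080, each with 1 Setd5+/- library.

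Zic1 was also lower without overlap in 3 gates where it was not called. It had 0.711, 0.448, 0.323 and 0.228 in Htr3a or Nr2f2 interneurons, 0.631, 0.611, 0.432 and 0.339 in radial glia, and 0.497, 0.789, 0.462 and 0.435 in intermediate progenitors. Het9 was the lowest library in each of these gates.

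In the Ebf1 gate Zic1 had 2.00, 1.25, 1.30 and 1.60, so the genotypes overlapped and Het9 was not low (log2 difference -0.12, SE 0.26). In deep-layer excitatory neurons it had 0.206, 0.288, 0.259 and 0.291, also overlapping. Zic4 in intermediate progenitors had 0.199, 0.222, 0.0915 and 0.0532, which did not overlap (log2 difference -0.86, SE 0.18, adjusted p = 0.0838 from limma, and -1.02 without Het5). It was also lower without overlap in 5 other gates, and uncalled in the 4 of them where it passed the filter. Zic4 had 0.256, 0.210, 0.0284 and 0 in Lhx6 interneurons, from 7, 10, 1 and 0 UMIs (log2 difference -1.55). It had 0.258, 0.233, 0.116 and 0.0869 in Htr3a or Nr2f2 interneurons, 0.335, 0.434, 0.278 and 0.144 in cycling pallial cells, and 0.245, 0.306, 0.225 and 0.0902 in radial glia. In cycling Dlx cells, where it failed the filter, Zic4 had 0.113, 0.0829, 0.0707 and 0. Zic5 in radial glia had 0.264, 0.151, 0.201 and 0.284, and in cycling pallial cells 0.126, 0.289, 0.189 and 0.333, overlapping in both. In the Ebf1 gate Zic5 failed the filter and was higher in Het5 and Het9 without overlap (0.0299, 0.0140, 0.0703 and 0.111), from 1, 1, 3 and 2 UMIs. The Cajal-Retzius or hem gate was not tested, because fits were limited to gates with at least 20 cells in every library and it had 12 to 33. There Het9 was lowest for Zic1 and Zic2 and highest for Zic5, with 1.35 UMIs per 10000 against 0.757, 1.13 and 0.984 in WT3, WT6 and Het5.

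Over all cells, Zic1 averaged 0.759, 1.11, 0.572 and 0.336 and Zic4 0.408, 0.479, 0.225 and 0.0739 UMIs per 10000, without overlap. Neither was called (log2 difference -0.91 and -1.19, adjusted p = 0.615 and 0.474 from limma, 0.087% of 8047 genes called). Without Het5 the differences were -1.23 and -1.64, and without Het9 they were -0.60 and -0.74, each with 1 Setd5+/- library. In the 4 Dlx gates together, Zic1 had a log2 difference of -1.64 and Zic4 of -1.71, and again neither was called (adjusted p = 0.832 and 0.502 from limma, 0.103% of 7776 genes called). There they were -2.57 and -2.53 without Het5 and -0.71 and -0.89 without Het9. Zic4 was called after thinning (-1.87, adjusted p = 0.0452 from limma). Zic2 passed the filter in neither of these comparisons. Zic5 passed in both and was not called, and in the Dlx gates it was -0.76 with all libraries, -1.16 without Het5 and -0.37 without Het9.

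The difference between gates was tested as such. The genotype difference of Zic1 was larger in Dlx neuroblasts than in cycling Dlx cells by -1.24 on the log2 scale (SE 0.27, adjusted p = 0.0469 from limma, 0.0776% of 7730 genes called). Zic4 (-1.57), Zic2 (-1.28) and Zic5 (-1.10) were not called in this contrast (adjusted p = 0.156, 0.390 and 0.670 from limma). Without Het9 the Zic1 contrast was -0.69, and it lost the call without Het9, WT3 or WT6, fits that leave 1 library in a genotype. Against radial glia the contrast was -1.51 for Zic1 and -1.58 for Zic4 (adjusted p = 0.113 and 0.197 from limma, 0.148% of 8091 genes called). It was -1.51 for Zic2 and -1.46 for Zic5 (adjusted p = 0.408 and 0.664 from limma). None was called with all 4 libraries. For Zic1 and Zic4 the contrast was -2.69 and -2.62 without Het5, and -0.33 and -0.53 without Het9.

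Within the Dlx neuroblasts, cells with a Zic1 UMI differed from those without it in the same library. The 143 positive cells were 44, 71, 24 and 4 in WT3, WT6, Het5 and Het9, and their median depth of 5501 to 5988 UMIs was above the 3909 to 4144 of the negative cells. Limma with library as a block called 51 of 7701 genes, 0.662%, and without Het9, whose positive group is 4 cells, it called 314. Apart from Zic1, which defined the groups, 49 of the called genes had the same sign in all 4 libraries, 21 higher and 28 lower in Zic1-positive cells. Zic4 and Zic5 are among these genes. The values of the other Zic genes restate their co-detection with Zic1, given above, and are no separate test. Zic4 was higher by 4.44, with 4.28, 6.06, 3.79 and 1.24 UMIs per 10000 in the positive cells and at most 0.230 in the negative ones. Zic5 was higher by 3.41. Zic2 had 0.980, 0.927, 0.808 and 0 in the positive cells and at most 0.0198 in the negative ones (2.32, and 3.09 without Het9).

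The 10 genes named by size among the called genes with 1 sign in 4 libraries include Zic4 and Zic5. Calb2, the calcium-binding protein calretinin of some interneurons, was higher by 2.94 (SE 0.43, adjusted p = 0.00261 from limma). It had 1.94, 0.268, 1.60 and 1.47 UMIs per 10000 in positive cells and 0.157, 0, 0.0514 and 0.0492 in negative cells, so WT6 was low in both. Kitl, the ligand of the receptor Kit, was higher by 2.48 and Dmrtb1, a DM-domain factor, by 2.43. Fgf15, a secreted fibroblast growth factor of the embryonic midline, was higher by 3.11 (SE 0.62, adjusted p = 0.0257 from limma), with 2.81, 4.55 and 1.49 in the positive cells of WT3, WT6 and Het5 against at most 0.117 in the negative cells, and no UMI in the Het9 neuroblasts.

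Of the 10 genes so named, 5 were lower in Zic1-positive neuroblasts. Gucy1a3 and Gucy1b3, subunits of soluble guanylate cyclase, had log2 differences of -3.76 and -2.39, and Zfp503, a zinc finger protein of developing striatum, one of -3.07. Zfp503 had 0.0373, 0.0524, 0.0722 and 0 UMIs per 10000 in positive cells and 0.936, 1.45, 0.868 and 1.05 in negative cells, which did not overlap. For Npy, a neuropeptide of interneurons, it was -2.77 and for Nr2f1, the receptor COUP-TFI, -2.59. Bcl11b, Foxp1 and Epha4, chosen after their values were seen, had -1.56, -1.93 and -2.08 (adjusted p = 8.49e-05, 0.00055 and 0.000351 from limma). Nfib and Ptn, chosen the same way, were higher by 0.99 and 1.47.

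**Figure D5:**
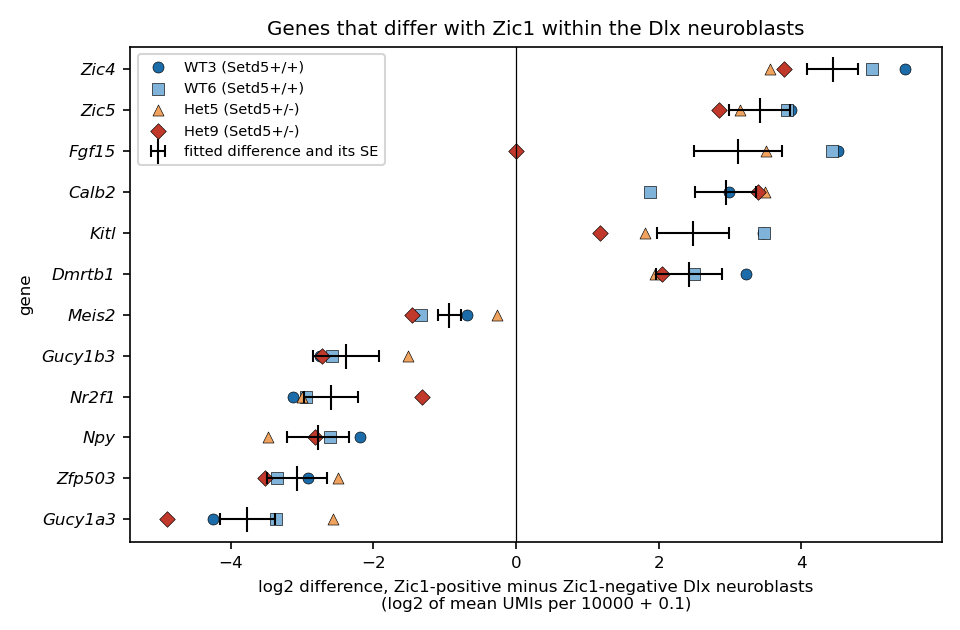
Log2 difference (horizontal axis, linear steps of log2 of mean UMIs per 10000 + 0.1) between Zic1-positive and Zic1-negative Dlx neuroblasts for the 10 genes named by size, Fgf15 and Meis2 (vertical axis). Coloured points are libraries, and black ticks with bars are the fitted difference and its SE. The 10 named genes, Zic4 and Zic5 among them, and Meis2 lie on 1 side of 0 in all 4 libraries, and Fgf15 lies at 0 in Het9.

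The genotype values of some of these genes in the whole neuroblast gate are given side by side only, since the 2 comparisons share their cells. Limma called Fgf15 and not Kitl, Nr2f1 or Calb2. Fgf15 averaged 0.960, 1.43, 0.329 and 0 in WT3, WT6, Het5 and Het9 (log2 difference of Setd5+/- from Setd5+/+ -2.62, SE 0.41, adjusted p = 0.00159 from limma). Kitl had 0.338, 0.518, 0.116 and 0.0905 (-1.36, adjusted p = 0.0584), and Nr2f1 had 1.07, 0.615, 1.10 and 1.94 (0.78, adjusted p = 0.382). Calb2 had 0.755, 0.0792, 0.360 and 0.0987 (-0.37), with the genotypes overlapping. The study named Fgf15, Kitl and Nr2f1 beside Zic1 and Zic4 in its cluster 3 on these libraries.

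Lists of genes around Zic function were counted in the neuroblasts, where 0.299% of all genes were called by genotype and 0.662% by Zic1. Of 16 Gli and hedgehog genes, 3 passed the filter in the genotype comparison of neuroblasts and 4 in that by Zic1, and limma called 0 in either, with 0 and 0 at an unadjusted p under 0.05. Gli1, the hedgehog target, was at most 0.0135 UMIs per 10000 in the neuroblasts of any library. Of 16 dorsal midline Wnt and Bmp genes, 12 are in the table and only Wnt7b passed the filter, uncalled in both. Of 23 forebrain domain factors, 20 were tested by genotype, and Nkx2-1, a factor of the ventral subpallium, was called, with 0.936 (WT3), 1.02 (WT6), 0.425 (Het5) and 0.227 (Het9) UMIs per 10000 (-1.38, adjusted p = 0.00664 from limma). Of the 20, 7 had an unadjusted p under 0.05. The median of the 20 was 0.12, beside -0.0046 over all genes. By Zic1, 19 were tested with a median of -0.54, beside -0.084 over all genes, and Meis2 and Nr2f1 were called, both lower in positive cells, with 8 of the 19 at an unadjusted p under 0.05. Over all genes, 446 of 7702 by genotype and 571 of 7701 by Zic1 had such a p. Lhx6 and Nr2f2 are at 0 in this gate by its definition. Of 8 midline FGF genes only Fgf15 passed the filter, called in both comparisons, and of 8 diencephalic markers only Tcf7l2 did, called in neither.

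The pattern over gates was compared with that of every other gene by Pearson r of log2(mean + 0.1) over the 10 gates with at least 20 cells in every library, among 9836 genes. The gates share libraries and depth, and r is given as a description. Zic4 was the gene most like Zic1 (r = 0.945), and As3mt (0.856), Kif26a (0.843) and Sept1 (0.809) were among the 5 most like it. Zic1 was in turn the gene most like Zic4, with Tmem243 (0.895), Rnmtl1 (0.867) and D030055H07Rik (0.832) among its 5. Zic2 was followed by Otx2 (0.964), a homeobox factor of the anterior midline and choroid plexus, then by Pcca (0.942), Zic5 (0.941), Fgf15 (0.928) and Clybl (0.916). Zic5 was followed by Mrps18b (0.941), Zic2 (0.941), Pcca (0.931), Otx2 (0.895) and Zmat3 (0.891).

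Pcca, an enzyme subunit of propionate breakdown, and Clybl, a mitochondrial lyase, lie on either side of Zic5 and Zic2 on chromosome 14, with only the predicted coding gene Gm10837 besides these between them. Clybl ends 54560 bases before Zic5, and Pcca starts 54471 bases after Zic2. Pcca averaged 0.540 UMIs per 10000 in the Cajal-Retzius or hem gate, 0.225 in the Dlx neuroblasts and 0.166 in radial glia, and 0.0190 in the other excitatory neurons. Clybl had 0.411, 0.0995, 0.105 and 0.00479 in the same gates. With the Cajal-Retzius or hem gate added, which makes 11 gates, both ranked among the 3 genes most like Zic2 (r = 0.972 and 0.979), and Pcca ranked first for Zic5 (0.970). Zic1 and Zic4 were again each other's nearest (0.970).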

How the data were processed

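Sc RNA-Seq libraries of sorted E18.5 cortical cells, 2 of each genotype, were used. The authors deposited the natural log of 1 plus the UMIs per 10000 UMIs of each cell. Tools in the submitters' processing notes are Cell Ranger 2.1 and Seurat 2.3.0 with the build mm10, while annotation, strand setting and cell filters were not given in the sources used here. Divided by the lowest value of its cell on the linear scale, each of the 14848520 values above 0 was whole (tolerance 0.001) and was read as UMIs. No columns of cells lacked a library prefix.

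Cells were assigned in order to gates by marker genes with a UMI, a cell taking the first it met, and 2 of the 68 markers are not in the table. No doublets were removed. Fetuses were the replicates. For each library and gate the mean UMIs per 10000 over cells was taken, and limma 3.58.1 (R 4.3.3) with a trend of the variance was run on log2(mean + 0.1) for genes with a mean of at least 0.1, with Benjamini-Hochberg adjustment over all genes tested and a threshold of 0.05. No count model was fitted to the recovered UMIs. Odds ratios had 0.5 added to each cell of the 2 by 2 table. Shares have exact (Clopper-Pearson) 95% intervals, and limits of 0 rest on 3 counts. The fits were also run on simulated data, in which only genes with a mean above 1 UMI per 10000 were changed. That run does not cover genes at lower levels, such as Zic2 and Zic5. Named genes were the Zic genes, gate markers, 5 fixed lists, the 5 genes most like each Zic gene, and the 10 genes of largest change by Zic1 with 1 sign in 4 libraries, and others are said to be chosen after their values were seen. A gene that these rules also name is not reported here. The members, gates and lists were chosen with earlier results of these data known. Alternatives were pseudocounts of 0.01 and 1, no filter, each library left out, thinning to 3000 UMIs, UMIs summed per library, shared barcodes kept, cells of several gates left out, and 3 Dlx markers. Leaving libraries out in the other gates and in the differences between gates was chosen after seeing the data. Positions are from GENCODE M21 and upstream sequences from RefSeq, with numpy 2.4.6, scipy 1.17.1, pandas 2.3.3 and matplotlib 3.10.9 on Python 3.11.15.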

Additional observations from a re-analysis of the deposited data

Results flagged for a closer look

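The genotype difference of Zic1 in Dlx neuroblasts exceeded that in cycling Dlx cells by -1.24 on the log2 scale (adjusted p = 0.0469 from limma), and both Setd5+/- libraries were below both Setd5+/+ libraries in the neuroblasts. It was not called without Het9, WT3 or WT6, and a fit without any of the libraries leaves 1 library in a genotype.

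Among the 224 cells left out because their barcode is found in all 4 libraries, 12 had a Zic2 UMI, which is given as a signal in cells that no comparison used. No background share was measured for these cells. They carried 7 of the 56 barcodes, and 3 of these had the UMI in more than 1 library. Of the 12 cells, 11 had at least 3 of the pigment cell markers Dct, Pmel, Tyrp1 and Mlana, as did 125 of the 224. Zic5 was found in 7 of these cells, Zic4 in 2 and Zic1 in 0, which allows a share of up to 1.34%.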

How the results depend on the processing

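No paired analysis was possible because the column prefixes carry no replicate number shared between the genotypes. In Dlx neuroblasts the calls of Zic1 and Zic4 were lost with a pseudocount of 0.01 (-2.33 and -2.87), no filter (-2.09 and -2.17), cells of several gates left out (-1.98 and -2.07) and 3 Dlx markers (-2.06 and -2.11), and that of Zic1 on thinning (-2.41). A genotype fit with a library left out has 1 library in a genotype, so its calls do not measure the spread between fetuses. In the neuroblasts Zic1 then lay between -3.40 and -0.77 and Zic4 between -3.60 and -0.73. The genes called there were 8 to 58 with a library left out, 8 with cells of several gates left out and 9 with 3 Dlx markers, against 23. Over all cells they were 7 to 44 with a library left out (7 with all, 44 without Het5), and in Dlx-positive cells 9 to 32, with 13 on thinning and 19 for summed UMIs (8 with all). By Zic1 they were 9 with a pseudocount of 0.01, 81 on thinning and 44 to 314 with a library left out (51 with all), the highest without Het9. The log2 odds ratio of Zic1 and Zic4 was 5.11 on thinning and 6.96 with cells of several gates left out.

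Directions turned, in results that were not called, with a library left out. In the Ebf1 gate Zic1 lay between -0.44 and 0.20 (0.20 without WT3, 0.017 without Het5) and Zic4 between -1.62 and 0.22 (0.22 without WT3). Zic5 lay between -0.14 and 0.65 in cycling pallial cells (-0.14 without WT3, -0.038 without Het9) and between -0.10 and 0.44 in radial glia (-0.10 without WT6, -0.0070 without Het9). Zic2 lay between -0.0028 (without WT6) and 0.40 in radial glia, and Zic1 between -0.050 (without WT3) and 0.29 in deep-layer neurons. The cause of these changes was not tested. The values rest on 2 fetuses per genotype, 4 Zic1-positive neuroblasts in Het9, and 297 UMIs of Zic2 and 476 of Zic5 in all.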
